A study of Mus musculus with 10 samples.

Results

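The 10 genes described here encode growth factors that bind receptors on spermatogonia, or on the cells around them, in the testis. They are Kitl, Csf1, Lif, Fgf2, Fgf8, Fgf9, Igf1, Egf, Ereg and Hgf. They were taken by name from the deposited expression matrix, where each had 1 of the 21969 rows. The rule that picks them, ligands of the spermatogonial niche, names no measured value. The members were nevertheless chosen with earlier results of these data known, so their counts below are a description. Their RNA was measured in 10 RNA-seq libraries of DBA/2 mouse cells, 2 for each of 5 groups. At week 0 adult testis cells had been sorted with magnetic beads for CD9, a surface protein that spermatogonial stem cells share with other testis cells. The groups at weeks 1, 2 and 3 were such cells after that time in culture. The last group was GS cells (germline stem cells), an established long-term culture of spermatogonia from the same strain. All cultures received human FGF2 and rat GDNF proteins and a low level of fetal serum, so no cultured group lacked these factors. Week 0 cells were not cultured, so culture and these factors cannot be told apart in comparisons with week 0. The labels do not state whether feeder cells were used or whether the replicates were separate cultures or animals. The p-values therefore speak only of how far these libraries lay apart, and that spread may be technical.

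Spermatogonial stem cells divide or differentiate under signals from Sertoli cells, peritubular myoid cells, Leydig cells and macrophages. KITL acts through the receptor tyrosine kinase KIT on differentiating spermatogonia, CSF1 through CSF1R, LIF through LIFR paired with gp130 (Il6st), and the FGFs through FGFR1 to FGFR4. IGF1 acts through IGF1R, HGF through MET, and EGF and epiregulin (Ereg) through the EGF receptor family. GDNF and FGF2 are the factors on which mouse spermatogonial stem cells are usually grown, and LIF has been used when such cultures are started. Protein added to the medium adds no RNA, so the values below are the ligands' own transcripts.

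The values are FPKM (fragments scaled to transcript length and library size), as normalized by the authors. The depth read from the steps of the low values was 10.3 to 20.7 M reads per library (M, 1e6), and replicates correlated at r = 0.987 to 0.994 across genes, which are not independent replicates. The summed level of 20 genes of undifferentiated spermatogonia was 144 to 154 FPKM in week 0, 480.5 to 499 in week 1, 898 to 953 in week 2, 992 to 1014 in week 3, and 1019 to 1049 in GS cells. At week 0 the 16 spermatid genes summed to 29419 to 31168 FPKM, so the sorted cells held much RNA of later germ cells, and at week 1 to 214 to 221. The 18 fibroblast and matrix genes summed to 1185 to 1389 FPKM in week 0, 10715 to 11017 in week 1, 1025 to 1049 in week 2, 481 and 941 in week 3, and 877 to 918 in GS cells. Week 3 replicate 1 was the library at 481, below every other library. In bulk RNA, fewer cells of a type and less RNA per cell cannot be told apart.

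The 10 ligands together summed to 55.3 and 61.3 FPKM in week 0, 704 and 694 in week 1, 35.8 and 41.7 in week 2, 20.0 and 23.2 in week 3, and 56.6 and 50.8 in GS cells. They were thus at their highest at week 1 and at their lowest at week 3, with no overlap between either group and the others. The summed FPKM of all genes differed between libraries, for example 860429 in week 0 replicate 1 and 580170 in week 2 replicate 1. As shares of that sum the ligands were at 0.00643% and 0.00722% in week 0. Week 2 overlapped these at 0.00616% and 0.00720%, and GS cells lay above them at 0.00907% and 0.00853%. Week 1 was again highest and week 3 lowest. The leading ligand changed: Egf was highest at week 0, Csf1 at weeks 1, 2 and 3 and in GS cells replicate 1, and Ereg in GS cells replicate 2.

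**Figure D1:**
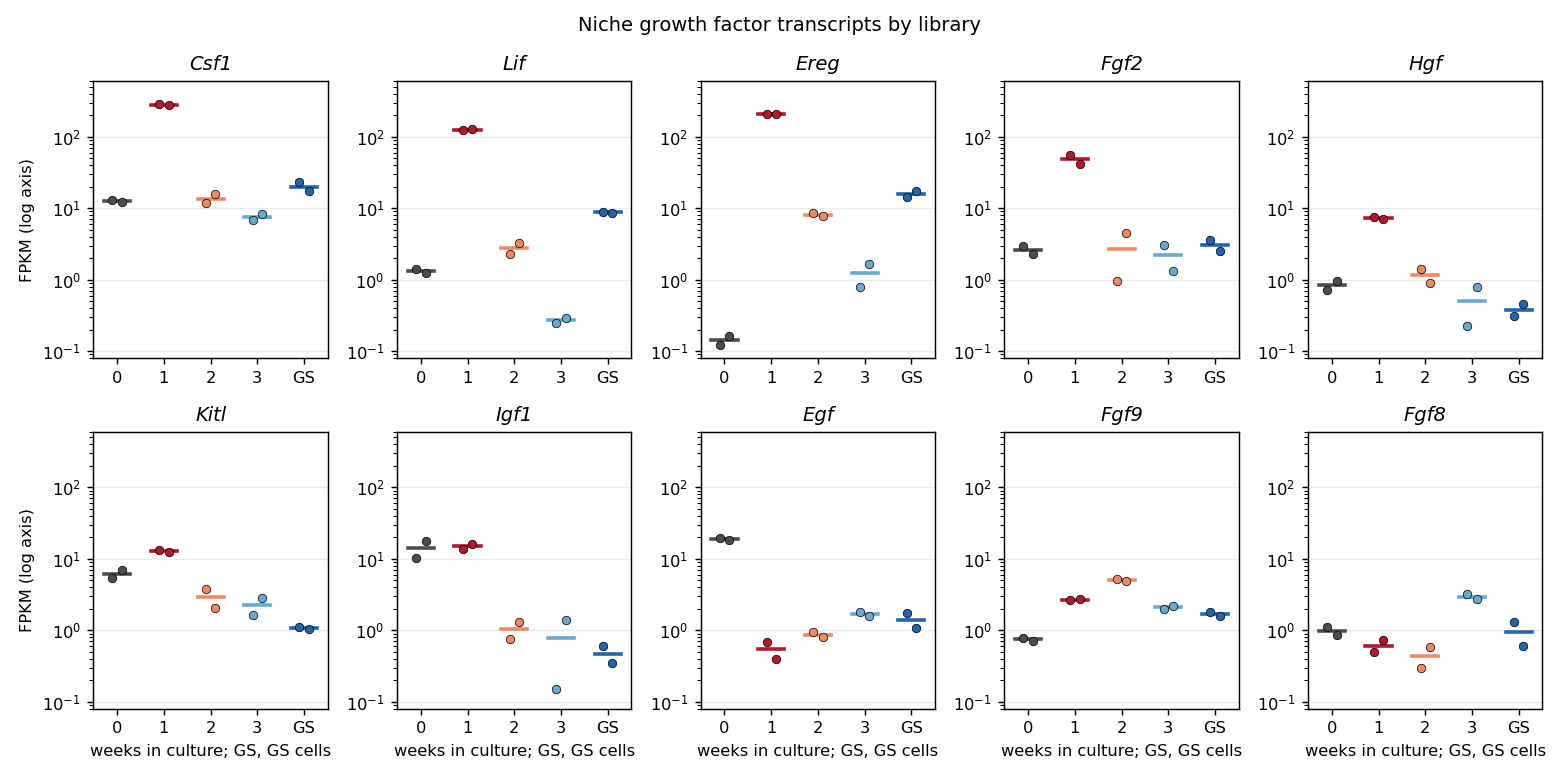
FPKM of each of the 10 growth factors (vertical axes, log scale) in the 2 libraries of week 0, week 1, week 2, week 3 and GS cells (points), with bars at the group means. Csf1, Lif, Ereg, Fgf2, Hgf and Kitl stand highest at week 1, Egf at week 0, Fgf9 at week 2 and Fgf8 at week 3.

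Csf1, Lif and Ereg shared a shape with a high week 1, a low week 3 and a second, smaller level in GS cells. Csf1 (ENSMUSG00000014599.10, chromosome 3, 107741048 to 107760469, minus strand, coordinates of GENCODE M21 on GRCm38), the growth factor of macrophages that also acts on spermatogonia, was at 13.0 and 12.1 FPKM in week 0, 282 and 277 in week 1, 11.7 and 15.6 in week 2, 6.86 and 8.41 in week 3, and 22.9 and 17.2 in GS cells. Lif (ENSMUSG00000034394.14, chromosome 11, 4257557 to 4272514, plus strand), a cytokine of the interleukin 6 family, was at 1.42 and 1.25 FPKM in week 0, 124 and 127 in week 1, 2.26 and 3.29 in week 2, 0.249 and 0.295 in week 3, and 8.99 and 8.52 in GS cells. Ereg (ENSMUSG00000029377.5, chromosome 5, 91074622 to 91093646, plus strand), a ligand of EGFR and ERBB4, was at 0.123 and 0.161 FPKM in week 0, 205 and 208 in week 1, 8.45 and 7.80 in week 2, 0.788 and 1.66 in week 3, and 14.2 and 17.4 in GS cells. At week 1 the 2 libraries lay close together for each of these genes, and far above all others. Replicates lay further apart for Ereg at week 3, Lif at week 2, and Csf1 at week 2 and in GS cells. At week 1 Csf1 stood above 97.6% and 97.7% of the genes tested in the 2 libraries, Ereg above 96.5% and 96.7%, and Lif above 93.8% and 94.1%. The Ereg value at week 0 rests on about 5 and 8 reads, so its exact level there is poorly known.

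The bases before the start of Csf1 and Lif, the members with the highest and the third highest level at week 1, and of Egf, which fell there, are shown so that promoters of genes that moved in opposite directions can be read side by side. They come from RefSeq's promoter table for GRCm38.p6, in which 8 of the 10 members were found, all but Ereg and Fgf8, and they are cut before annotated exons. Csf1 is chr3:107760470-107760719 on the minus strand, Lif is chr11:4257318-4257556 on the plus strand and Egf is chr3:129755323-129755572 on the minus strand. Capitals mark the letters found among AP-1 (TGAGTCA), GC box (GGGCGG), E-box (CACGTG) and the TATA box letters TATAAA, searched on both strands.
Csf1: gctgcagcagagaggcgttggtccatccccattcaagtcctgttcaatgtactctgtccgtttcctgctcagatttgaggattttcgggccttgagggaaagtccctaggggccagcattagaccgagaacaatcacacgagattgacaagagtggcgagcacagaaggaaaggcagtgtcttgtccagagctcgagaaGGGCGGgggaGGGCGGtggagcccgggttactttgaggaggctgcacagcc
Lif: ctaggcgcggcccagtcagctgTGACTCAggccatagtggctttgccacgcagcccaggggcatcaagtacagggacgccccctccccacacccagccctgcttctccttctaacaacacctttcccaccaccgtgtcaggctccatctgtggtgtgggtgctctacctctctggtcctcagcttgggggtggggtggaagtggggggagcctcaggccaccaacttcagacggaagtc
Egf: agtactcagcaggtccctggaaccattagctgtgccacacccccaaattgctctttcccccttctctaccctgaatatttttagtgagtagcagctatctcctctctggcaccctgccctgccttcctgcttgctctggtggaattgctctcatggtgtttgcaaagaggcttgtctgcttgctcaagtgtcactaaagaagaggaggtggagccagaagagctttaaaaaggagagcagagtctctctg
Csf1 held 2 GC boxes, 51 and 41 bases before its start, a motif found in 35.7% of the 32851 windows of 300 bases in the table. Lif held the AP-1 letters once, on the reverse strand and 228 bases before its start, as did 5.2% of windows. Egf held none of the 4 motifs in this window. Of the other members, Fgf2 held 1 GC box, 49 bases before its start in that table, and Kitl held 3 GC boxes and the TATA letters (13.6% of windows). These Fgf2 and Kitl matches lie inside the GENCODE genes given below, because the promoter table places both starts further downstream. The E-box letters (7.15% of windows) were in none of the 8. These are matches of letters and not shown sites.

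Fgf2, Hgf and Kitl peaked at week 1 without the second level in GS cells. Fgf2 (ENSMUSG00000037225.13, chromosome 3, 37348346 to 37410108, plus strand), whose protein was also in the medium, was at 2.93 and 2.27 FPKM in week 0, 54.9 and 42.1 in week 1, 0.962 and 4.49 in week 2, 3.06 and 1.32 in week 3, and 3.63 and 2.53 in GS cells. Outside week 1 its libraries ran from 0.962 to 4.49 FPKM, and these groups overlapped. Fgf2 shares part of its locus with Nudt6 on the opposite strand. The preparation was strand-specific, but no source used here says whether reads were counted by strand. Whether the Fgf2 values hold reads of Nudt6 is therefore not known. Nudt6 had 5.48 and 7.98 FPKM in week 0, 16.8 and 12.7 in week 1 and 12.4 to 19.2 in the 6 later libraries, so it had no peak at week 1.

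Hgf (ENSMUSG00000028864.7, chromosome 5, 16553495 to 16620152, plus strand), a ligand made by mesenchymal cells, was at 0.725 and 0.956 FPKM in week 0, 7.51 and 7.11 in week 1, 1.43 and 0.888 in week 2, 0.223 and 0.785 in week 3, and 0.308 and 0.456 in GS cells. Kitl (ENSMUSG00000019966.18, chromosome 10, 100015630 to 100100416, plus strand), which Sertoli cells make in the testis, was at 5.40 and 6.96 FPKM in week 0, 13.4 and 12.3 in week 1, 3.80 and 2.09 in week 2, 1.64 and 2.83 in week 3, and 1.10 and 1.05 in GS cells. Both genes were low in GS cells, and Kitl was lower there than in any other library.

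Igf1 was high at weeks 0 and 1 and Egf at week 0 alone, and both were low afterwards. Igf1 (ENSMUSG00000020053.18, chromosome 10, 87858265 to 87937042, plus strand), made in the testis by Leydig and other somatic cells, was at 10.3 and 17.9 FPKM in week 0, 13.7 and 16.4 in week 1, 0.763 and 1.33 in week 2, 0.152 and 1.41 in week 3, and 0.604 and 0.344 in GS cells. Its week 0 and week 1 libraries overlapped. Week 3 overlapped both week 2 and GS cells, while both GS libraries lay below both week 2 libraries. The value of 0.152 FPKM was in week 3 replicate 1, the library with the lowest fibroblast sum. It stands for at most 15 reads, taking the longest transcript of Igf1. Egf (ENSMUSG00000028017.7, chromosome 3, 129677565 to 129755316, minus strand) was at 19.5 and 18.2 FPKM in week 0, 0.690 and 0.395 in week 1, 0.939 and 0.800 in week 2, 1.83 and 1.60 in week 3, and 1.75 and 1.07 in GS cells. Egf was thus the only member whose mean was highest before culture.

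Fgf9 and Fgf8 stayed low throughout and peaked later than the others. Fgf9 (ENSMUSG00000021974.15, chromosome 14, 58070547 to 58112720, plus strand), which in the fetal testis acts in Sertoli cell and germ cell development, was at 0.793 and 0.714 FPKM in week 0, 2.62 and 2.77 in week 1, 5.20 and 4.89 in week 2, 2.00 and 2.17 in week 3, and 1.82 and 1.58 in GS cells. Fgf8 (ENSMUSG00000025219.13, chromosome 19, 45736798 to 45742915, minus strand) was at 1.12 and 0.864 FPKM in week 0, 0.490 and 0.732 in week 1, 0.300 and 0.579 in week 2, 3.19 and 2.74 in week 3, and 1.31 and 0.611 in GS cells. Both week 3 libraries of Fgf8 exceeded all others, and both week 2 libraries of Fgf9 did so for that gene. For Fgf8 these levels stand for at most 4.5 to 49.9 reads per library, taking its longest transcript.

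Week 1 was compared with week 0 to see which ligands changed as the sorted cells entered culture. Of the 10 members, 7 rose, 1 fell and 2 did not pass the test (limma on log2(FPKM + 1), Benjamini-Hochberg adjusted p under 0.05 over 15671 genes), with a median log2 fold change of 1.63. Over all genes tested, 36.3% rose and 44% fell, 80.3% in all, with a median of -0.14, so passing the test here was common. Among all calls, 45.2% were rises, against 59.8% after quantile normalization and 51.4% after rescaling to TPM, which moved the median of all genes to 0.38 and 0.08. Ereg rose by 7.50 (SE 0.19, limma adjusted p = 4.75e-09), Lif by 5.76 (SE 0.15, adjusted p = 5.18e-09), Csf1 by 4.38 (SE 0.17, adjusted p = 6.05e-08) and Fgf2 by 3.78 (SE 0.46, adjusted p = 8.19e-05). As ratios of the mean FPKM these were 1451, 93.6, 22.3 and 18.7 times the week 0 level. Hgf rose by 2.18 (limma adjusted p = 1.14e-05), Fgf9 by 1.08 (adjusted p = 2.49e-05) and Kitl by 0.96 (adjusted p = 0.00681), which is 8.70, 3.58 and 2.08 times in mean FPKM. Egf fell by 3.69 (limma adjusted p = 1.32e-07) and was 34.7-fold lower in mean FPKM. Igf1 differed by 0.13 (95% interval -0.71 to 0.97, limma adjusted p = 0.756) and Fgf8 by -0.31 (adjusted p = 0.164), where the sign of Fgf8 turned to 0.36 after quantile normalization.

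All 18 fibroblast and matrix genes rose at week 1 as well, with a median of 2.74 and a range from 0.39 for Pdgfra to 9.42 for S100a4, which spans the changes of Ereg, Lif, Csf1, Fgf2, Hgf, Fgf9 and Kitl. Thy1, Lox and Lum, a surface protein and 2 matrix genes of that list, rose by 7.51, 6.98 and 5.78 (limma adjusted p = 9.09e-09, 5.06e-08 and 1.67e-08), and S100a4 (adjusted p = 3.07e-07) by more than any member. In the same comparison 14 of 16 Sertoli genes, 8 of 9 Leydig genes and 7 of 10 smooth muscle and myoid genes fell, so Kitl rose while most Sertoli genes fell and Igf1 did not pass the test while most Leydig genes fell. All 16 spermatid genes fell with Egf. The part of these markers in the ligands' changes was not tested.

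**Figure D2:**
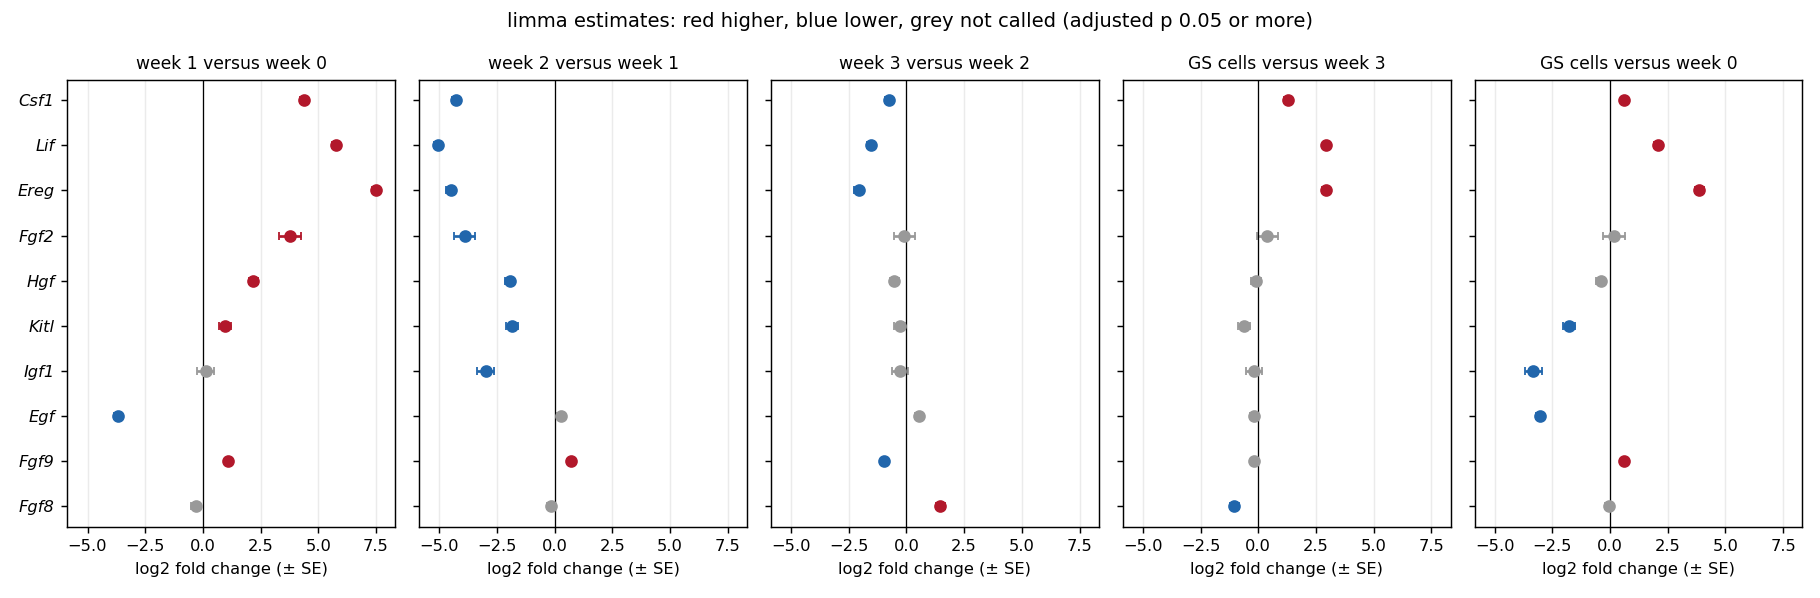
log2 fold changes of log2(FPKM + 1) (horizontal axis) of the 10 members (rows) in the consecutive comparisons and in GS cells against week 0 (panels), with bars for standard errors. Red and blue points mark genes that limma called higher and lower, and grey points the rest. At week 1 the changes run from -3.69 for Egf to 7.50 for Ereg, and most of the week 1 rises are followed by falls at week 2.

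The next step, week 2 against week 1, followed the ligands as culture went on. Of the 10 members, 1 rose, 7 fell and 2 did not pass the test, with a median of -2.47, against 28.2% of all genes that rose and 27.4% that fell, 55.6% in all, and a median of 0.03. Lif fell by 5.08 (limma adjusted p = 5.41e-07), Ereg by 4.51 (adjusted p = 1.48e-06), Csf1 by 4.28 (adjusted p = 1.31e-06) and Fgf2 by 3.90 (adjusted p = 0.000201). Igf1 fell by 2.98 (limma adjusted p = 0.000242), Hgf by 1.96 (adjusted p = 8.41e-05) and Kitl by 1.85 (adjusted p = 0.000394). Fgf9 rose by 0.71 (limma adjusted p = 0.000836). Egf differed by 0.28 (limma adjusted p = 0.183), but passed the test at 0.53 after quantile normalization (adjusted p = 0.0213) and at 0.52 after rescaling to TPM (adjusted p = 0.0411). Fgf8 differed by -0.17 (limma adjusted p = 0.498), and by 0.07 after quantile normalization. This comparison shares week 1 with the one before, so a rise and a fall around that group are not independent. Beside it, all 18 fibroblast genes, 12 of 16 Sertoli genes and 9 of 10 smooth muscle and myoid genes fell, and 50.7% of all calls were rises, against 61.8% after quantile normalization and 66.3% after rescaling to TPM. Their part in the ligands' falls was not tested.

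Week 3 was compared with week 2. Of the 10 members, 1 rose, 4 fell and 5 did not pass the test, with a median of -0.41, against 10.6% of all genes that rose and 10.7% that fell, 21.3% in all, and a median of 0.00051. Ereg fell by 2.06 (limma adjusted p = 0.000397), Lif by 1.56 (adjusted p = 0.000451), Fgf9 by 0.97 (adjusted p = 0.000978) and Csf1 by 0.75 (adjusted p = 0.0181). Fgf8 rose by 1.47 (limma adjusted p = 0.00175). The call for Csf1 was lost without week 3 replicate 1 (-0.62, adjusted p = 0.101), the library with the low fibroblast sum, and without week 2 replicate 2 (-0.56, adjusted p = 0.109). The other 5 differed by -0.53 for Hgf, -0.28 for Igf1, -0.27 for Kitl, -0.10 for Fgf2 and 0.54 for Egf (limma adjusted p = 0.0933, 0.652, 0.49, 0.935 and 0.0525). Hgf passed the test without week 3 replicate 2 (-0.81, adjusted p = 0.0312) and was at -0.26 without week 3 replicate 1. Beside these, 8 of the 18 fibroblast genes fell and 0 rose. Of the 20 genes of undifferentiated spermatogonia 9 rose, 6 fell and 5 did not pass the test, with a median of 0.13. Bcl6b, Lhx1 and Eomes, transcription factors chosen here after their values were seen, were among the 6 that fell, and like Fgf9 their means were highest at week 2. Their means at week 3 were 23.7, 12.9 and 1.46 FPKM, against 118, 52.4 and 5.04 at week 2. Of the 8 genes of differentiating spermatogonia 4 rose, 3 fell and 1 did not pass, with a median of 0.0039. Neurog3, of the undifferentiated list, and Stra8, of the differentiating list, were also chosen after their values were seen and rose as Fgf8 did. Neurog3 was at 6.04 and 4.68 FPKM in week 3 against 0.627 and 1.69 in week 2. Stra8 was at 102 and 105 FPKM in week 3 against 40.5 and 35.6 in week 2. Being picked by value, Bcl6b, Lhx1, Eomes, Neurog3 and Stra8 do not stand for their lists, which moved in both directions.

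GS cells were compared with week 3 to see which ligands an established culture made at another level. Of the 10 members, 3 rose, 1 fell and 6 did not pass the test, with a median of -0.14, against 11.7% of all genes that rose and 10.8% that fell, 22.5% in all, and a median of -0.0068. Lif rose by 2.94 (SE 0.15, limma adjusted p = 3.87e-05), Ereg by 2.94 (SE 0.19, adjusted p = 0.000115) and Csf1 by 1.28 (SE 0.17, adjusted p = 0.00211), or 32.2, 12.9 and 2.63 times in mean FPKM. Fgf8 fell by 1.04 (limma adjusted p = 0.00749). Without week 3 replicate 1 the values were 2.91 for Lif (adjusted p = 0.000599), 2.65 for Ereg (adjusted p = 0.000446) and 1.15 for Csf1 (adjusted p = 0.0167), and all 3 passed the test. Fitted on these 4 libraries alone, Csf1 and Fgf8 missed the threshold (adjusted p = 0.0565 and 0.0839). The 6 others differed by between -0.61 for Kitl (95% interval -1.19 to -0.04, limma adjusted p = 0.117) and 0.40 for Fgf2 (interval -0.67 to 1.46, adjusted p = 0.607). Beside these, 4 of the 18 fibroblast genes rose and 0 fell, and the ratio of GS cells to week 3 in that list ran from 0.717 to 2.56, with a median of 1.4. The ratios of Lif and Ereg, and by a small margin that of Csf1, were higher than that of each gene of the list, the highest of which was Fap. In the Sertoli list ratios ran from 0.465 to 3.01, with a median of 1.15. Trf (2.86), Defb36 (2.69) and Cst12 (3.01) in it were above Csf1. The ratio of Cst12 is poorly known, at 0.231 FPKM in GS cells and 0.0768 at week 3. At week 3 Lif rested on at most 13.7 and 21.2 reads, so its ratio is poorly known. Other members had ratios as low as 0.324, and the part of the fibroblast genes in these changes was not tested. Even so, Lif, Ereg and Csf1 in GS cells were at 6.99%, 7.67% and 7.17% of their week 1 means.

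**Figure D3:**
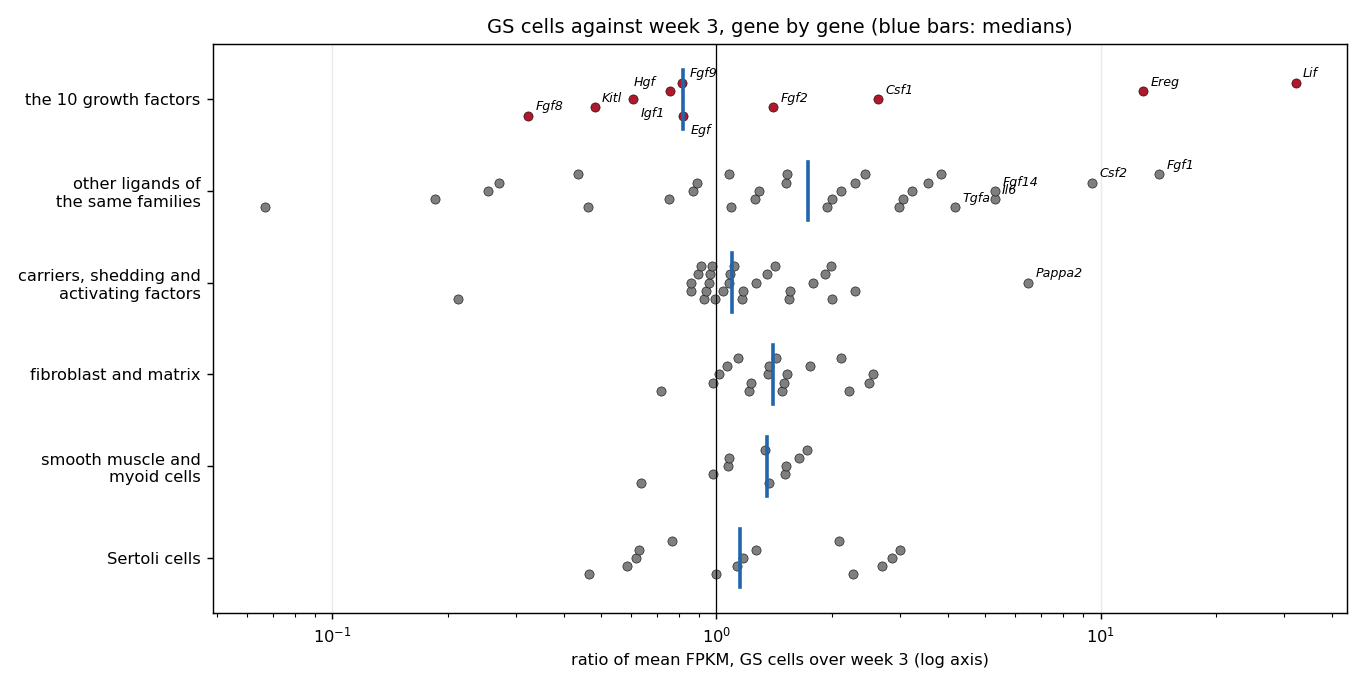
Ratio of GS cells to week 3 in mean FPKM (horizontal axis, log scale) for the genes of each list (rows), with 1 point per gene, bars at the medians, and labels for the members and for other genes with ratios of 4 or more. Genes below the filter or listed at 0 in both week 3 libraries are left out. Lif at 32.2 and Ereg at 12.9 lie above the fibroblast and matrix genes, whose ratios run from 0.717 to 2.56.

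GS cells were compared with week 0 to set the established culture against the sorted cells. Of the 10 members, 4 rose, 3 fell and 3 did not pass the test, with a median of 0.064, against 34.7% of all genes that rose and 45.9% that fell, 80.6% in all, and a median of -0.21. Ereg rose by 3.87 (limma adjusted p = 2.32e-07), Lif by 2.06 (adjusted p = 2.62e-06), Csf1 by 0.63 (adjusted p = 0.00903) and Fgf9 by 0.62 (adjusted p = 0.000782). The call for Csf1 was lost without GS cells replicate 1 (0.43, adjusted p = 0.0685). Igf1 fell by 3.32 (limma adjusted p = 4.04e-05), Egf by 3.06 (adjusted p = 4.33e-07) and Kitl by 1.78 (adjusted p = 0.000183). Fgf2 differed by 0.17, Fgf8 by -0.04 and Hgf by -0.41 (limma adjusted p = 0.741, 0.836 and 0.0828). After quantile normalization all 10 members passed the test, with Fgf2 at 1.24 (adjusted p = 0.0296), Fgf8 turned to 0.92 (adjusted p = 0.00146) and Hgf turned to 0.48 (adjusted p = 0.0497). Fgf8 was at 0.22 after rescaling to TPM, and Hgf at -0.41 passed the test in 3 other alternatives (adjusted p = 0.031 to 0.0389). Quantile normalization moved the median of all genes to 0.45 and the share of rises among calls to 61.1%, against 43% as deposited and 54.2% after rescaling to TPM. This comparison shares its GS libraries with the comparison to week 3. In it, 14 of 16 Sertoli genes, all 9 Leydig genes and all 10 smooth muscle and myoid genes fell.

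Ordered by level, Csf1, Lif, Ereg, Fgf2, Hgf and Kitl were highest at week 1, and in each the step to the next group passed the test, in comparisons some of which were added after seeing the data. Of all genes tested, 79.5% were called between weeks 2 and 0, 80.6% between weeks 3 and 0, 61.9% between weeks 3 and 1, 58.6% between GS cells and week 1 and 18% between GS cells and week 2. For Lif the order was week 1, GS cells, week 2, week 0 and week 3, and each neighbouring pair passed. For Ereg, GS cells, week 2, week 3 and week 0 followed week 1, and each pair again passed. For Csf1, GS cells, week 2 and week 0 followed week 1 and did not differ beyond their spread as neighbours (limma adjusted p = 0.0706 and 0.616), and week 3 was lowest. For Fgf2 the 4 lower groups did not differ as neighbours, with adjusted p of 0.669 to 0.812. For Hgf and Kitl the lower neighbours did not differ either, except that Kitl at week 2 was below week 0 (adjusted p = 0.00979). Fgf9 had week 2 above week 1, then week 3, GS cells and week 0, where the step from GS cells to week 0 also passed. Fgf8 had week 3 above week 0 (adjusted p = 0.00126), and its 4 lower groups did not differ as neighbours. For Igf1 the one step between neighbours that passed was week 2 below week 0, and for Egf it was week 3 below week 0. Some pairs that were not neighbours passed as well. Egf was higher than at week 1 both at week 3 (0.82, limma adjusted p = 0.00271) and in GS cells (0.63, adjusted p = 0.0107). Kitl was lower in GS cells than at week 2 (-0.89, adjusted p = 0.0437). Fgf8 was lower at week 2 than at week 0 (-0.47, adjusted p = 0.0467), and Fgf9 in GS cells than at week 1 (-0.45, adjusted p = 0.00742).

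The receptors of these ligands changed in both directions. Of 15 receptor genes, 14 were tested, and Erbb4, at means of 0.00813 to 0.212 FPKM, lay below the filter. At week 1 against week 0, 7 rose and 6 fell, with a median of 0.72. At week 2 against week 1, 6 rose and 5 fell, at week 3 against week 2, 6 rose and 1 fell, and in GS cells against week 0, 8 rose and 4 fell. Over all genes tested, 36.3%, 28.2%, 10.6% and 34.7% rose in these comparisons, in the same order. The shares that fell were 44%, 27.4%, 10.7% and 45.9%. Egfr, Fgfr1 and Fgfr2 rose at week 1 and fell at week 2, as did Ereg, Lif, Csf1, Fgf2, Hgf and Kitl, while Kit, Lifr and Fgfr4 fell and then rose. Egfr, a receptor of both Egf and Ereg, rose to 34.6 ± 5.8 FPKM at week 1, against 6.79 ± 0.72 at week 0 (SD, n = 2 each; limma 2.19, adjusted p = 3.44e-06), and fell to 4.50 ± 0.81 at week 2 (-2.69 against week 1, adjusted p = 6.57e-06). Erbb3, which binds neuregulins and pairs with ERBB2, was at 1.14, 7.02, 15.8, 23.2 and 26.8 FPKM in the 5 groups in time order, and GS cells lay above week 0 by 3.70 (limma adjusted p = 1.2e-08). Erbb2 was at 4.93, 7.02, 11.1, 22.5 and 16.3 FPKM and GS cells lay above week 0 by 1.55 (adjusted p = 0.000151).

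Csf1r, the receptor of CSF1 and a marker of macrophages, fell to 0.951 ± 0.42 FPKM at week 1, against 13.3 ± 2.2 at week 0 (SD, n = 2 each; limma -2.88, adjusted p = 6.33e-07), while Csf1 rose. In GS cells it was at 0.0339 FPKM (-3.78 against week 0, limma adjusted p = 1.19e-07), at the level of very few reads. Of the 15 macrophage genes, 12 were tested, and 8 fell at week 1, 2 rose (Cd14 and Cd68) and 2 did not pass the test. Over all genes tested, 44% fell there and 36.3% rose. Their sum was 98.2 to 102 FPKM at week 1, against 489 to 537 at week 0, and Aif1 made up most of the week 0 sum, with a mean of 1.19 FPKM at week 1 against 355 at week 0. Without Aif1 the sums were 96.7 to 101 FPKM at week 1, against 143 to 173 at week 0. Kit, the receptor of KITL, was at 19.9, 9.31, 14.1, 19.7 and 34.7 FPKM in time order, and GS cells lay above week 3 by 0.79 (limma adjusted p = 0.00192), while Kitl was lowest there. Lifr was at 12.3, 6.47, 17.8, 24.1 and 16.7 FPKM in time order, and it rose at week 2 (1.34, adjusted p = 4.94e-05) as Lif fell. Il6st, the shared partner of LIFR, was at 30.0, 79.2, 52.1, 56.2 and 52.4 FPKM.

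Fgfr1 was the most abundant FGF receptor, at 34.4, 163, 63.3, 88.7 and 80.2 FPKM in time order, with rises and falls that passed the test at week 1 (2.25, limma adjusted p = 1.01e-05) and week 2 (-1.35, adjusted p = 0.000662). Fgfr2 was at 6.49, 16.1, 2.44, 3.60 and 4.89 FPKM and fell at week 2 (-2.34, adjusted p = 8.41e-05). Fgfr3 was at 7.60, 3.96, 4.59, 9.58 and 6.64 FPKM and rose at week 3 (0.93, adjusted p = 0.0108), and Fgfr4 had means of 2.14 FPKM or less. Igf1r, the receptor of IGF1, was at 11.8, 24.8, 37.6, 84.5 and 61.2 FPKM in time order, and GS cells lay above week 0 by 2.29 (limma adjusted p = 1.25e-07), opposite to Igf1. Insr had means of 7.34, 4.62, 2.45, 1.96 and 2.87 FPKM. Met, the receptor of HGF, had means of 1.52, 5.45, 5.64, 6.40 and 5.96 FPKM. In GS cells against week 3, 2 receptors rose (Kit and Egfr) and 2 fell (Lifr and Igf1r), against 11.7% and 10.8% of all genes.

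**Figure D4:**
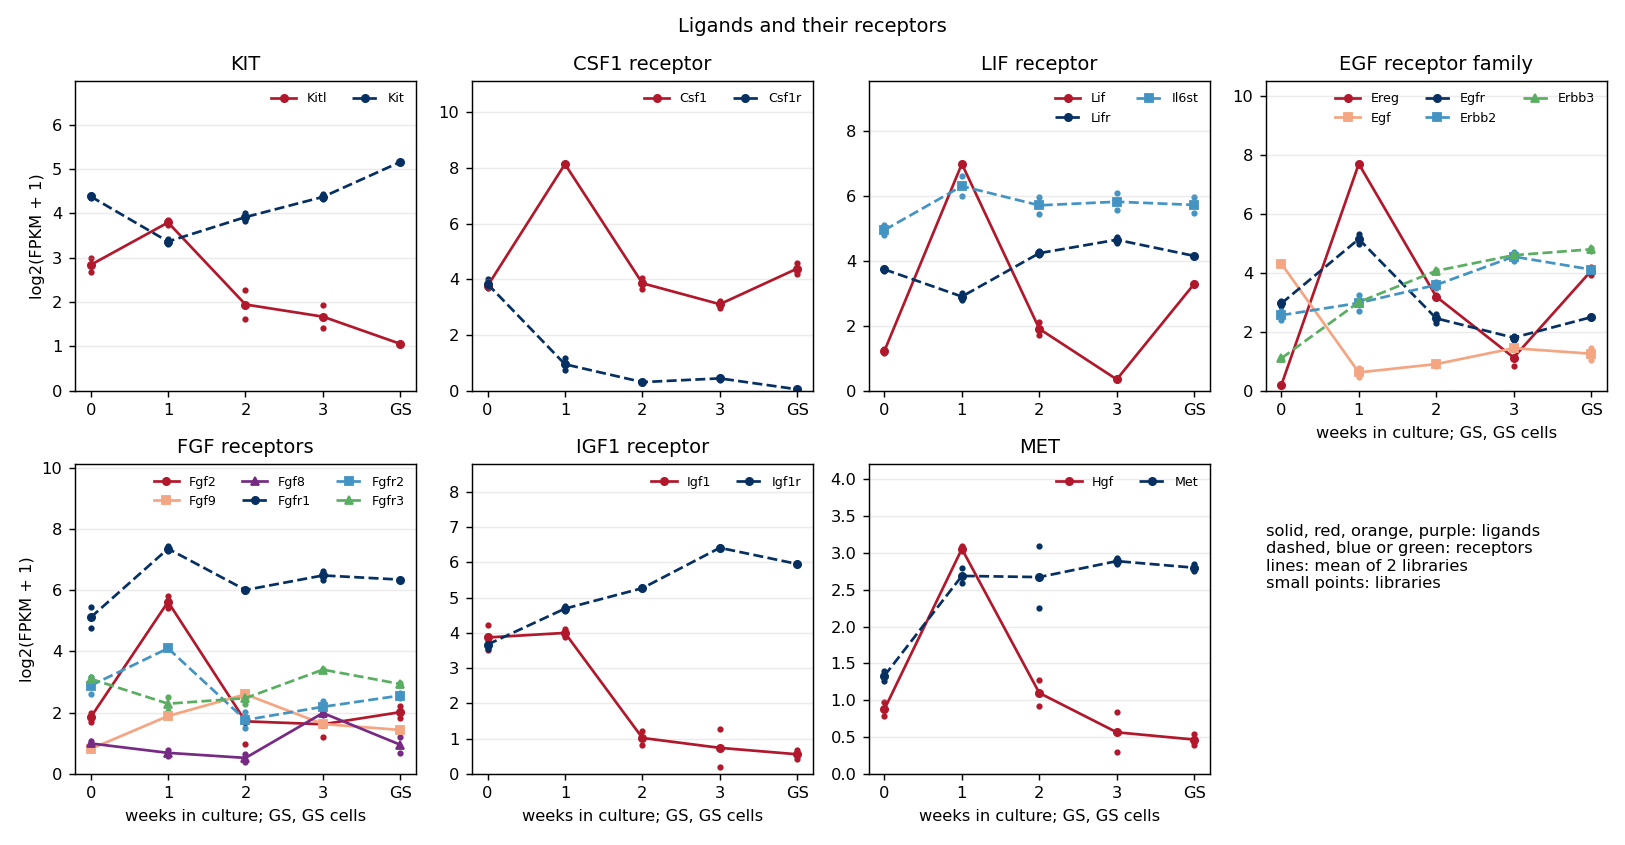
log2(FPKM + 1) (vertical axes) of each ligand (solid lines) and its receptors (dashed lines) across week 0, week 1, week 2, week 3 and GS cells, 1 panel per receptor system. Lines join means of 2 libraries and small points are the libraries. Csf1 rises at week 1 as Csf1r falls, and Igf1 falls after week 1 as Igf1r rises.

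A list of 40 other genes held mainly ligands of the same families, of which 30 passed the filter. It also held Gdnf, of another family, and counted Csf2, Csf3 and FGF genes, Fgf11 to Fgf14 among them, by name alone. At week 1 against week 0, 18 rose and 8 fell, with a median of 1.11, and at week 2 against week 1, 2 rose and 18 fell. Over all genes tested, 36.3% rose and 44% fell at week 1, and 28.2% rose and 27.4% fell at week 2. Il6, a cytokine related to LIF, averaged 356 ± 23 FPKM in week 1, against 0.198 ± 0.22 in week 0 (SD, n = 2 each; limma 8.23, adjusted p = 1.42e-06). Hbegf, which like Ereg binds EGFR, was at 165 ± 3.8 FPKM at week 1, against 3.44 ± 0.23 at week 0 (limma 5.22, adjusted p = 3.33e-09). Clcf1, a further ligand of the gp130 family, was at 103 ± 4.4 FPKM against 2.80 ± 0.29 (limma 4.77, adjusted p = 9.32e-08). Fgf7, a mesenchymal FGF, averaged 64.9 ± 6.3 FPKM in week 1 and read 0 in each week 0 library. At week 2, Il6, Il11, Fgf7 and Gdnf had the strongest falls, and Gdnf, whose protein is in the medium, was at 0.369 FPKM at week 2 against 14.6 at week 1 (limma -3.51, adjusted p = 5.41e-07). In GS cells against week 3, 8 of the 30 rose and 2 fell, against 11.7% and 10.8% of all genes. Those with the strongest rises were Il6, Hbegf, Il11 and Fgf18. Hbegf was at 23.0 ± 0.46 FPKM in GS cells, against 7.14 ± 1.3 at week 3 (limma 1.57, adjusted p = 0.000277). At week 3 against week 2, 1 rose and 5 fell, against 10.6% and 10.7% of all genes. Igf2 was at 22.4 ± 2.3 FPKM in week 3, against 64.7 ± 0.13 in week 2 (limma -1.49, adjusted p = 0.000206), and Fgf21 rose by 1.21 (adjusted p = 0.00111), while Hbegf fell by 1.18 and Il6 by 1.93 (limma adjusted p = 0.000688 and 0.0381). In GS cells against week 0, 11 rose and 11 fell, against 34.7% and 45.9% of all genes. Il6, Clcf1 and Hbegf were higher there by 3.62, 2.65 and 2.44 (limma adjusted p = 0.000275, 3.75e-06 and 2.84e-07). Il6 varied at week 3, at 0.366 FPKM in replicate 1 and 4.75 in replicate 2.

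Likeness was measured as Pearson's r of log2(FPKM + 1) over the 10 libraries of 5 groups, searched over 15661 genes, and the 2 genes most like each member are named as a description. The 10 libraries fall into 5 groups, so r rests largely on the 5 group levels. Ereg was most like Ptgs2 (r = 0.997), which makes prostaglandins, and Hbegf (0.996). Lif was most like Ier3 (0.995) and Arpc2 (0.991), Csf1 like Masp1 (0.993) and Sncg (0.993), and Fgf2 like Milr1 (0.981) and Rab33a (0.980). Kitl was most like Crip1 (0.985) and Fam198b (0.984), Hgf like Rnase4 (0.993) and Dcxr (0.992), and Igf1 like Tvp23b (0.992) and Mrgprf (0.991). Egf was most like Kif27 (0.998) and Ubxn6 (0.998), Fgf9 like Hoxc12 (0.994) and Abtb2 (0.982), and Fgf8 like Tmem104 (0.931) and Parp6 (0.920), the lowest among the members.

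**Figure D5:**
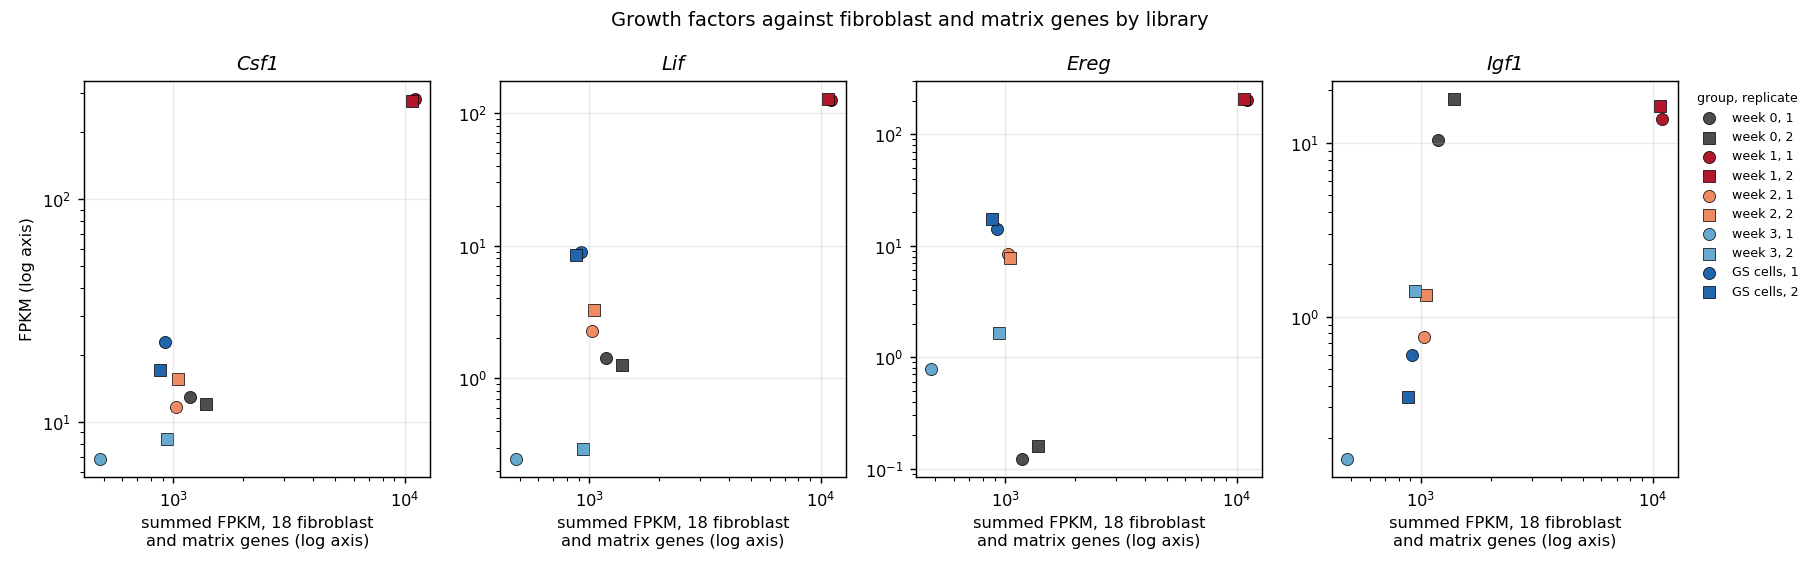
Level of Csf1, Lif, Ereg and Igf1 (vertical axes, FPKM, log scale) against the summed FPKM of the 18 fibroblast and matrix genes (horizontal axis, log scale) in the 10 libraries, coloured by group and shaped by replicate. The week 1 libraries stand apart at 10715 to 11017 on the horizontal axis, and Lif and Ereg differ widely among the remaining libraries at sums of 481 to 1389.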

How the data were processed

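Polyadenylated RNA of 10 libraries was sequenced after strand-specific preparation, per the labels' protocols. The deposited values were the authors' normalized FPKM, in 21969 rows. Tools named in the submitters' processing notes, with no role given, were HISAT2 2.1.0 and Bowtie2 2.3.4.1, Cuffdiff and Cufflinks 2.2.1, cutadapt 1.16 and bcl2fastq 2.17.1.14, with the build mm10. The annotation release, strand setting and normalization method were not given in those sources.

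Values were analysed as log2(FPKM + 1), so a fold change understates low genes, for 15671 genes that reached FPKM 1 in 2 or more libraries. All 10 members passed this filter. A single model of all 5 groups was fitted in limma 3.58.1 (R 4.3.3, intensity trend, 5 residual degrees of freedom), two-sided, with Benjamini-Hochberg adjustment over all genes tested. The script was tested on simulated data. Coordinates are 1-based. Depth was estimated from 2268 genes with a lone annotated transcript, where 95.3% to 98.7% of low values were whole reads within 0.15. Reads were not recovered for all genes, so no count model was run.

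All members were named, and of the lists of other ligands, receptors and carriers up to 4 called genes per comparison with the largest change, with every receptor above FPKM 1. Members and lists were chosen with earlier results of these data known. Alternatives were 2 pseudocounts, 2 filters, quantile normalization, rescaling to TPM, the compared groups alone, no trend, a replicate block and each library left out.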

Additional observations from a re-analysis of the deposited data

How the results depend on the processing

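Over the 5 comparisons and 10 members, 945 alternative values were computed, of which 905 kept direction and side of the threshold, 7 lost the call, 16 gained it and 17 changed sign. The changed signs were of members not called as reported. Leaving out each library in turn gave -0.391 to 0.0174 for Egf in GS cells against week 3, -0.0227 to 0.369 for Fgf2 in GS cells against week 0, -0.00905 to 0.802 for Fgf2 in GS cells against week 3. It also gave -0.839 to 0.645 for Fgf2 in week 3 against week 2, -0.305 to 0.216 for Fgf8 in GS cells against week 0, -0.371 to 0.174 for Hgf in GS cells against week 3. The remaining ranges were -0.715 to 0.349 for Igf1 in GS cells against week 3, -0.237 to 0.496 for Igf1 in week 1 against week 0, -0.813 to 0.251 for Igf1 in week 3 against week 2, -0.592 to 0.0443 for Kitl in week 3 against week 2. Quantile normalization gave 0.918, 0.361 and 0.0743 for Fgf8 in GS cells against week 0, week 1 against week 0 and week 2 against week 1, and 0.483 for Hgf in GS cells against week 0. Rescaling to TPM gave 0.216 for Fgf8 in GS cells against week 0. The cause was not tested. Egf at week 3 against week 2 passed in 9 alternatives, with adjusted p of 0.0285 to 0.0493. Csf1 at week 3 against week 2 missed the threshold with no filter (adjusted p = 0.0529) and in the compared groups alone (0.106). Fitting only the compared groups, which leaves fewer libraries, called 1326 genes against 3526 in GS cells against week 3, with 2 members against 4, and 1880 against 3339 at week 3 against week 2. Leaving out each library called 1748 to 3702 and 1573 to 3520 genes in these comparisons. Same-numbered libraries of different groups correlated in their deviations at -0.0525 to 0.0458, so the numbers were not read as pairs. With a replicate block, 12543, 8610, 3159, 3251 and 12617 genes were called in the 5 comparisons, and 8, 8, 6, 4 and 7 members. Depth limits Fgf8 everywhere, Lif at week 3 (at most 13.7 and 21.2 reads) and Ereg at week 0.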

Other observations

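Genes for carriers, shedding enzymes and activators of these ligands moved as well. Of 32, 28 were tested, and at week 1 against week 0 22 rose and 4 fell (limma, median 1.43). Over all genes tested, 36.3% rose and 44% fell at week 1, and 28.2% rose and 27.4% fell at week 2. Plau, the urokinase that can cleave pro-HGF, was at 108 ± 0.83 FPKM at week 1, against 7.21 ± 0.56 at week 0 (SD, n = 2 each; limma 3.73, adjusted p = 3.08e-07). Igfbp3, a binding protein of IGF1, was at 115 ± 2.6 FPKM at week 1, against 2.93 ± 0.39 at week 0 (limma 4.89, adjusted p = 1.16e-07). Sdc1 and Sdc2, heparan sulfate proteoglycans that hold FGFs at the cell surface, rose by 3.79 and 3.12 (limma adjusted p = 3.74e-08 and 2.84e-07). At week 2 against week 1, 4 rose and 16 fell, with Igfbp7, Plau, Igfbp4 and Sdc2 falling by 3.80, 3.75, 3.57 and 2.98 (limma adjusted p = 1.23e-05, 3.15e-06, 1.62e-06 and 3.66e-06).

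At week 3 against week 2, 2 rose and 9 fell. Igfbp6 rose to 41.0 ± 2.7 FPKM at week 3, against 10.4 ± 0.99 at week 2 (limma 1.88, adjusted p = 0.000184), while Igfbp3, Igfbp7 and Igfbp5 fell by 1.66, 1.07 and 1.05 (limma adjusted p = 0.00175, 0.0238 and 0.000825). In GS cells against week 3, 9 rose and 0 fell, with Plau at 8.18 ± 0.83 FPKM against 3.57 ± 1.3 (limma 1.03, adjusted p = 0.00795). In GS cells against week 0, 15 rose and 7 fell. Over all genes tested, 10.6% rose and 10.7% fell at week 3 against week 2. The shares were 11.7% and 10.8% in GS cells against week 3, and 34.7% and 45.9% against week 0. Sdc4, another syndecan, was at 759 ± 59 FPKM in GS cells, against 46.3 ± 8.3 at week 0 (limma 4.01, adjusted p = 1.24e-08), and Spint1, an inhibitor of the protease that activates HGF, rose by 2.49 (limma adjusted p = 7.72e-08), while Sdc3 fell by 2.51 (limma adjusted p = 3.13e-07). The fibroblast and matrix genes moved beside these changes, and their part was not tested.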
